A study of Homo sapiens with 6 samples.

Results

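The genes described here are 7 long noncoding RNAs, MALAT1, NEAT1, NORAD, TUG1, PVT1, KCNQ1OT1 and MIR22HG, which were picked by name from the 60606 genes of an expression table of human breast cancer xenografts. RNA was measured in 6 subcutaneous tumors that NSG mice, which lack T, B and natural killer cells, grew from wild-type MDA-MB-231 cells, a triple-negative human breast cancer line. The irradiated group held 3 tumors, exposed locally to 10 Gy of 6 MV X-rays in 1 fraction at 6 Gy per minute when they measured about 800 mm3, and taken 3 days later. The control group held 3 tumors of the same cells that received no radiation. All 6 came from 1 cell line, the labels give neither the volume of the controls nor the age of the mice, and they do not say whether each tumor came from its own mouse, so the spread behind each p-value is that of these 6 samples, which may be partly technical.

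Long noncoding RNAs are transcripts of gene length that are not translated into a protein of known use. MALAT1 and NEAT1 stay in the nucleus: MALAT1 collects in nuclear speckles, which store splicing factors, and the long form of NEAT1 is the scaffold on which paraspeckles assemble. NORAD acts in the cytoplasm, where it binds Pumilio proteins and is needed for stable chromosome numbers. TUG1 was first described as a gene needed in the developing retina, PVT1 lies beside the MYC oncogene and is often amplified with it, KCNQ1OT1 is the paternally expressed antisense RNA that silences an imprinted domain, and MIR22HG is the host transcript of the microRNA miR-22. NEAT1, NORAD and MIR22HG have been described as induced by DNA damage in other cells.

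The expressed levels of these genes are given as TPM, the share that a gene's transcripts have in a tumor, scaled to a fixed total and corrected for gene length, so levels of different genes can be set beside each other. By this measure 6 of the 7 were well expressed. NORAD ranked between 17 and 22 among the 14795 genes that GENCODE release 29 classes as long noncoding, depending on the tumor. NEAT1 ranked between 31 and 77, TUG1 between 37 and 58, PVT1 between 42 and 55, and MIR22HG between 63 and 185. MALAT1 ranked between 35 and 335, and its lowest rank came from a single tumor, control tumor 2. KCNQ1OT1 ranked between 3118 and 3679 and never exceeded 0.17 TPM, so it was not an abundant RNA in these tumors.

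The sequence elements that set these RNAs apart are shown first. MALAT1 (ENSG00000251562, chr11:65497688-65506516, plus strand, GRCh38) and NEAT1 (ENSG00000245532, chr11:65422774-65445540, plus strand) are neighbors, with 52147 bases between them, and the longest form of each ends without a poly(A) tail. RNase P cuts each of them just upstream of a tRNA-like RNA, and the end left behind folds 2 U-rich motifs and an A-rich tract into a triple helix that protects it. The last 90 genome-encoded bases before that cut are printed because they hold all 3 elements, with the U-rich motifs TTTCTTTT and TTTTGCTTTT and the A-rich tract AAAAGCAAAA in capitals.
MALAT1, chr11:65506027-65506116: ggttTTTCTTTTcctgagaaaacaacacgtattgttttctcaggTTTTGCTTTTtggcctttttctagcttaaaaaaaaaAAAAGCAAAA
NEAT1, chr11:65445451-65445540: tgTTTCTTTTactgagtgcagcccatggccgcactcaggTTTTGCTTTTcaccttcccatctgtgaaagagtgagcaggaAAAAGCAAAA
The 3 strings were read from these 90 bases of MALAT1, so its own match was fixed in advance and only that of NEAT1 was open. Among the longest transcripts of 14994 long noncoding RNA genes in GENCODE release 29, 6 held all 3 strings on the transcript strand. MALAT1 and NEAT1 were the 2 that held them within 90 bases. The other strand of 5 transcripts held all 3. The A-rich tract is the reverse complement of the second U-rich motif.

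NORAD (ENSG00000260032, chr20:36045622-36050960, minus strand) is transcribed as 1 unspliced RNA of 5339 bases. Its transcript holds the Pumilio recognition motif TGTANATA 15 times, with no overlap between motifs, and the other strand holds it 1 time. Of 439 other long noncoding RNAs with a longest transcript of 4000 to 7000 bases, 35.5% hold the motif at all, the median number is 0, and 2 hold it 15 times or more. The longest transcript of NEAT1 holds 6 motifs in 22743 bases, that of TUG1 holds 2 in 7469 bases, that of KCNQ1OT1 holds 9 in 91667 bases, and those of MALAT1, PVT1 and MIR22HG hold none. NORAD thus carries 2.81 motifs per kb against 0.268 per kb in TUG1, the next densest. The 3 places where a second motif begins 9 bases after the first are printed on the transcript strand, with the motifs in capitals.
NORAD sites 4 and 5, chr20:36049498-36049525: tatctgTGTATATAgTGTACATAaagga
NORAD sites 9 and 10, chr20:36048301-36048328: ctatacTGTATATAtTGTATATAtaacg
NORAD sites 12 and 13, chr20:36047665-36047692: gtgctgTGTATATAgTGTATATAagcgg

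MIR22HG (ENSG00000186594, chr17:1711493-1717174, minus strand) carries the miR-22 hairpin. Both mature strands are printed from RefSeq (GRCh38.p14) with the seed, bases 2 to 8, in capitals, because the seed decides which messages the microRNA can pair with.
hsa-miR-22-3p, chr17:1713914-1713935: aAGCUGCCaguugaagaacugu
hsa-miR-22-5p, chr17:1713952-1713973: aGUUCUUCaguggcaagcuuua

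TUG1 (ENSG00000253352, chr22:30969245-30979395, plus strand) is annotated as a bidirectional-promoter long noncoding RNA. PVT1 (ENSG00000249859, chr8:127794533-128101253, plus strand) spans 306721 bases but its longest annotated transcript has 1699. KCNQ1OT1 (ENSG00000269821, chr11:2608328-2699994, minus strand) is annotated as 1 transcript of 91667 bases that lies antisense inside KCNQ1.

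The comparison of irradiated with control tumors used limma on log2(TPM + 1) over the 14140 genes that averaged 1 TPM or more, and an adjusted p below 0.05 was taken as a call. All adjusted p-values come from that test with Benjamini-Hochberg adjustment over all 14140 genes, and all fold changes are irradiated minus control on that log2 scale, which understates the change of genes near 1 TPM. KCNQ1OT1 was below the filter and was not tested in that fit. Of the 6 tested RNAs, limma called 0 higher and 0 lower in irradiated tumors, beside 2.98% of all genes called (1.37% higher and 1.61% lower). At an unadjusted p below 0.05 there were 2 of 6, MALAT1 and NEAT1, beside 20.5% of all genes. The median log2 fold change of the 6 was 0.071, beside -0.056 over all genes.

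**Figure D1:**
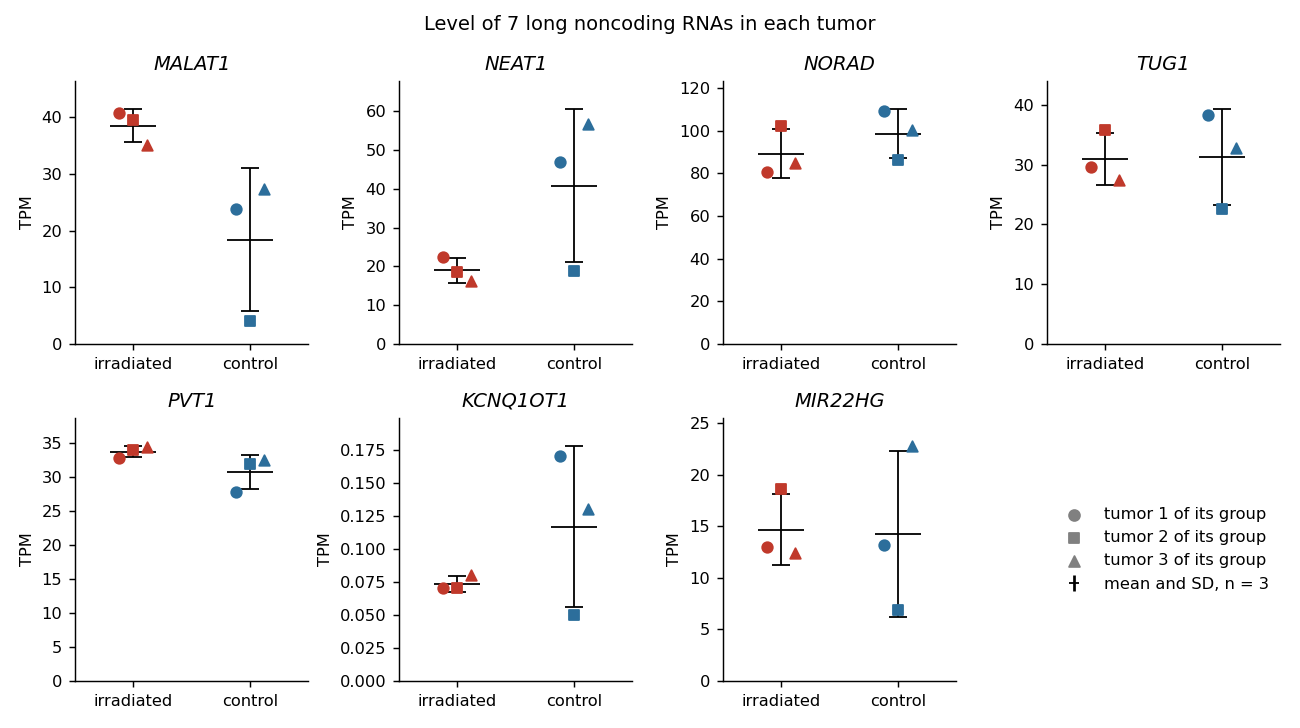
Level of each RNA in TPM (linear vertical axis from 0, scaled for each RNA) in 3 irradiated tumors (red, left) and 3 control tumors (blue, right), with group means and SD (n = 3 each). MALAT1 lies above all controls in every irradiated tumor, NEAT1 lies below control tumors 1 and 3, and control tumor 2 (blue square) is the lowest control for 6 of the 7 RNAs.

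MALAT1 was at 40.6, 39.5 and 35.1 TPM in irradiated tumors 1, 2 and 3, against 23.8, 4.03 and 27.4 TPM in control tumors 1, 2 and 3. Every irradiated tumor was above every control, which also held for 11.6% of all genes tested, and control tumor 2 stood far below the rest. The means were 38.4 ± 2.92 TPM in irradiated tumors and 18.4 ± 12.6 TPM in controls (SD, n = 3 each). The coefficient of variation was 7.60% in irradiated tumors and 68.3% in controls. The log2 fold change was 1.37 ± 0.58 (SE), with a 95% interval of 0.048 to 2.69, and it was not called (adjusted p = 0.229). Without control tumor 2 the log2 fold change was 0.57 (adjusted p = 0.0712), so 1 library sets much of its size. In bulk tissue, fewer cells of a type and less RNA per cell cannot be told apart, for MALAT1 or for any RNA below.

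NEAT1 had the opposite pattern. It was at 22.5, 18.5 and 16.2 TPM in irradiated tumors, against 46.9, 18.9 and 56.7 TPM in controls. Control tumors 1 and 3 were above every irradiated tumor, and the groups met only through control tumor 2, which lay between the irradiated values. The means were 19.1 ± 3.22 TPM in irradiated tumors and 40.8 ± 19.6 TPM in controls (SD, n = 3 each). The log2 fold change was -0.93 ± 0.37 (SE), with a 95% interval of -1.78 to -0.091, and it was not called (adjusted p = 0.201). Without control tumor 2 NEAT1 was called lower in irradiated tumors, with a log2 fold change of -1.40 (adjusted p = 0.0222), in a fit that called 4.73% of all genes (1.41% higher and 3.32% lower). NEAT1 was also called lower when limma weighted the tumors by their quality (log2 fold change -1.21, adjusted p = 0.0406), where 4.51% of all genes were called lower.

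The ratio of MALAT1 to NEAT1 within a tumor does not depend on how TPM are scaled to a total. It may still depend on how the libraries were enriched and on the mix of the 8 annotated NEAT1 transcripts, which was not tested. The ratio was 1.80, 2.13 and 2.17 in irradiated tumors, against 0.507, 0.213 and 0.482 in controls. MALAT1 therefore exceeded NEAT1 in every irradiated tumor and NEAT1 exceeded MALAT1 in every control, control tumor 2 included. The log2 ratio averaged 1.02 ± 0.148 in irradiated tumors and -1.42 ± 0.701 in controls (SD, n = 3 each), a difference of 2.44 or 5.43-fold. A two-sided exact permutation test over the 20 splits of the tumors gave p = 0.1, the smallest value that 3 against 3 allows, so this test could not pass 0.05. Leaving out control tumor 2 gave a difference of 2.04. The sum of both RNAs overlapped between the groups, at 63.2, 58.0 and 51.3 TPM in irradiated tumors, against 70.6, 22.9 and 84.1 TPM in controls.

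**Figure D2:**
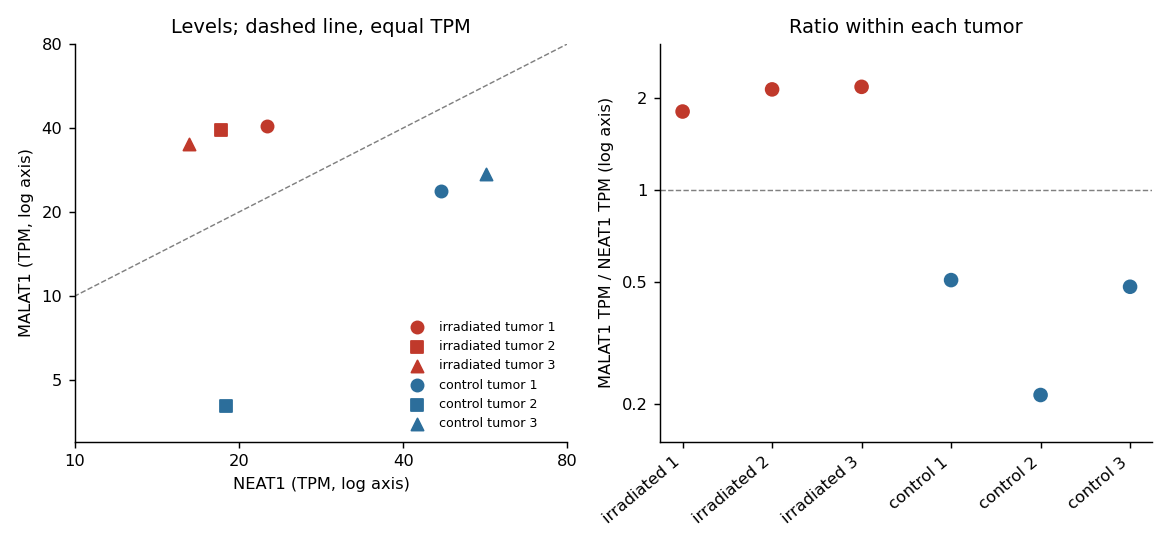
Left, MALAT1 against NEAT1 in TPM (both axes logarithmic, dashed line at equal levels) for 3 irradiated (red) and 3 control (blue) tumors; right, the ratio of MALAT1 to NEAT1 in each tumor (logarithmic axis). The irradiated tumors lie at ratios of 1.80 to 2.17 and the controls at 0.213 to 0.507.

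The RNAs that MALAT1 and NEAT1 release at the cut, listed as separate genes of 57 and 58 bases, were at 0 in all 6 tumors. These tRNA-like products were thus not detected in the table. The genes around the pair were not called. FRMD8, a scaffold protein on the NEAT1 side, was at 21.1, 23.0 and 35.0 TPM in irradiated tumors, against 17.3, 14.9 and 17.3 TPM in controls (log2 fold change 0.61, adjusted p = 0.150). LTBP3, a binding protein of latent TGF-beta, was at 89.5, 105 and 161 TPM in irradiated tumors, against 64.2, 82.4 and 76.1 TPM in controls (0.63, adjusted p = 0.160). In both genes the groups did not overlap, which also held for 26.6% of all genes in either direction. Between NEAT1 and MALAT1 lies a transcribed unprocessed pseudogene (ENSG00000173727, chr11:65455258-65466720), at 63.5, 36.3 and 28.9 TPM in irradiated tumors, against 17.3, 23.1 and 13.6 TPM in controls. Its log2 fold change was 1.16 (adjusted p = 0.0826), so it too was not called, and reads of its parent gene may be counted there. Among these 3 genes and the pair itself, NEAT1 was the 1 with a negative fold change.

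Other RNAs that lack a poly(A) tail were read in the same tumors, because the labels do not say whether the libraries were enriched for RNAs with a tail. RN7SK, the RNA that holds the elongation factor P-TEFb inactive, was at 162, 95.3 and 88.6 TPM in irradiated tumors, against 38.6, 31.0 and 34.4 TPM in controls. RN7SK was called higher in irradiated tumors (log2 fold change 1.66, adjusted p = 0.0124). RN7SL2, an RNA of the signal recognition particle, was at 493, 367 and 402 TPM in irradiated tumors, against 263, 47.8 and 130.1 TPM in controls (1.81, adjusted p = 0.0990). RN7SL1, its near-identical copy, was at 696, 414 and 342 TPM in irradiated tumors, against 332, 83.8 and 207 TPM in controls (1.36, adjusted p = 0.153), and reads may be split between the copies in more than 1 way. RMRP, the RNA of RNase MRP, has 2 rows in the table. The one for ENSG00000277027 was at 125, 31.3 and 36.0 TPM in irradiated tumors, against 21.7, 3.91 and 17.3 TPM in controls (2.07, adjusted p = 0.132). The other, for ENSG00000269900, was at 28.8, 10.2 and 0 TPM in irradiated tumors, against 0, 0 and 0 TPM in controls. Its groups overlapped (2.79, adjusted p = 0.179). In RN7SK, RN7SL2, RN7SL1 and the first RMRP row, as in MALAT1, all irradiated tumors were above all controls and control tumor 2 was the lowest. H2AC6, a histone gene, was at 41.3, 40.6 and 35.7 TPM in irradiated tumors, against 8.21, 6.67 and 7.45 TPM in controls, and was called higher (2.25, adjusted p = 0.000272). Whether the reads of this and the other histone genes came from RNAs without a tail was not tested. SNORD3A, a small nucleolar RNA, was called lower (-2.46, adjusted p = 0.00261), with irradiated tumors listed at 0, 0.36 and 0 TPM, against 5.17, 5.71 and 4.44 TPM in controls. RN7SK, H2AC6 and SNORD3A were also called without control tumor 2. Not all histone genes were higher: H3C2 was at 1.28, 2.18 and 1.39 TPM in irradiated tumors, against 3.96, 4.45 and 3.26 TPM in controls (-0.91, adjusted p = 0.0855), and H4C3 (-0.65, adjusted p = 0.227) was also below all controls in every irradiated tumor. Of 21 tested rows of this kind, 2 of them for RMRP, 2 were called higher and 1 lower. An unadjusted p below 0.05 was found for 10 rows (7 higher and 3 lower), beside 20.5% of all genes. Both RMRP rows are among the 7. Of the 21 fold changes 13 were positive and 8 negative, with a median of 0.50, and the negative ones included RPPH1, the RNA of RNase P (-0.21, adjusted p = 0.840), TERC, the telomerase RNA (-0.79, adjusted p = 0.632), and RNU4-2, a spliceosomal RNA (-2.13, adjusted p = 0.495). Their summed level was 1065 to 2276 TPM in irradiated tumors, against 403 to 966 TPM in controls, while VTRNA1-1, RNY1 and RNY3 were listed at 0 in all 6. RN7SL1 and RN7SL2 held a large part of these sums. The highest sum, in irradiated tumor 1, also held RNU1-1 at 471 TPM, against 1.31 TPM in irradiated tumor 2. The part of this class, and of the way the libraries were enriched, in the values of MALAT1, of NEAT1 and of their ratio was not tested.

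**Figure D3:**
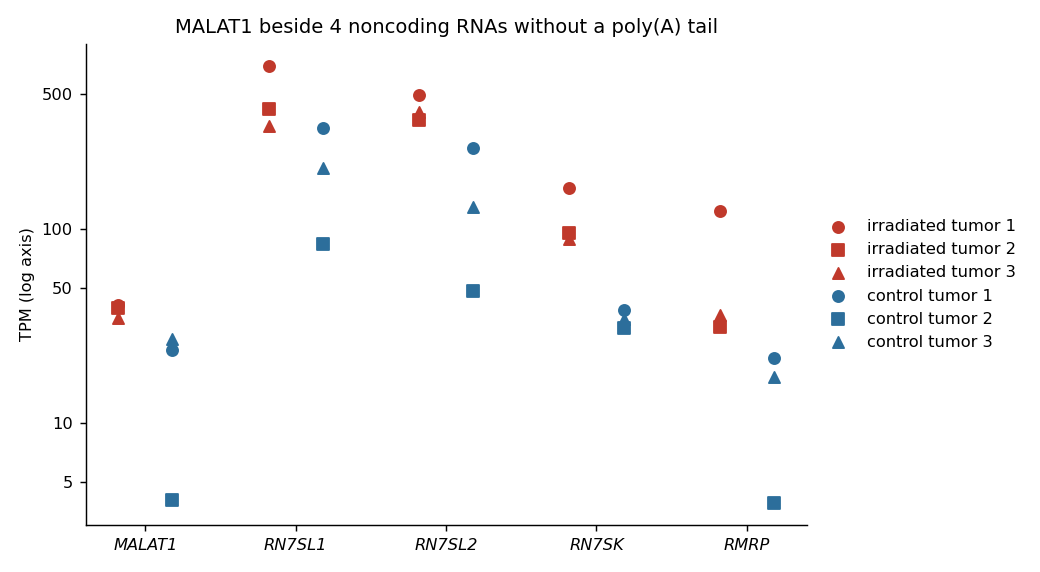
Level in TPM (logarithmic axis) of MALAT1 and of 4 noncoding RNAs without a poly(A) tail, picked from 21 rows after their values were seen. The 3 irradiated tumors are red (left of each pair) and the 3 control tumors blue (right), with a marker shape for each tumor of a group. All irradiated values shown lie above the control values of the same RNA, and control tumor 2 (blue square) is the lowest for each. RMRP is shown by its ENSG00000277027 row, and its other row, in which the groups overlap, is not drawn.

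Splicing and paraspeckle proteins were then read as partners of MALAT1 and NEAT1. Paraspeckle proteins were called neither higher nor lower by limma: 0 of 27 tested passed, 8 had an unadjusted p below 0.05 (1 higher and 7 lower), and 24 of 27 fold changes were negative, with a median of -0.25. Over all genes 44.3% of fold changes were positive. The core proteins that bind NEAT1 directly did not separate the groups. NONO was at 229, 246 and 248 TPM in irradiated tumors, against 283, 226 and 286 TPM in controls (log2 fold change -0.13, adjusted p = 0.622). SFPQ was at 155, 168 and 183 TPM in irradiated tumors, against 255, 169 and 262 TPM in controls (-0.41, adjusted p = 0.252). PSPC1 (-0.031, adjusted p = 0.949) also overlapped. The smallest p-values of the list belonged to 4 RNA-binding proteins, RBM3 (-0.55, adjusted p = 0.0599), DAZAP1 (-0.81, adjusted p = 0.0732), TARDBP (-0.61, adjusted p = 0.0855) and NUDT21 (-0.53, adjusted p = 0.0999). Their groups did not overlap, and all irradiated tumors were below all controls. Without control tumor 2, 4 of the 27 were called lower, DAZAP1, SFPQ, HNRNPR and SRSF10, beside 3.32% of all genes in that fit. The median was then -0.48, beside -0.13 over all genes.

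Nuclear speckle proteins gave a like picture. Of 18 tested, limma called 0, 5 had an unadjusted p below 0.05 (all lower), and 17 fold changes were negative, with a median of -0.30. SRSF7, a splicing factor, was at 77.3, 87.0 and 99.3 TPM in irradiated tumors, against 141, 120.5 and 142 TPM in controls (log2 fold change -0.61, adjusted p = 0.0656). SRRM2, a scaffold of speckles, was at 175, 143 and 182 TPM in irradiated tumors, against 253, 211 and 335 TPM in controls (-0.66, adjusted p = 0.101). PNN, a speckle protein that also occurs at desmosomes, was at 20.3, 19.8 and 15.7 TPM in irradiated tumors, against 52.0, 21.4 and 62.9 TPM in controls (-1.12, adjusted p = 0.132). As in NEAT1, control tumor 2 lay close to the irradiated tumors for PNN, and SON, the other scaffold of speckles, had 66.9, 70.9 and 65.3 TPM in irradiated tumors, against 98.3, 74.4 and 113 TPM in controls (-0.46, adjusted p = 0.173). Without control tumor 2, PNN, SON, SRSF7 and NKTR were called lower, beside 3.32% of all genes in that fit, and the median of the 18 was -0.54.

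Of 11 tested proteins that cut the MALAT1 end or bind its triple helix, limma called 0 and 2 had an unadjusted p below 0.05, both lower. They were METTL16, a methyltransferase that binds the triple helix (log2 fold change -0.49, adjusted p = 0.154), and RPP30, a subunit of RNase P (-0.45, adjusted p = 0.169). The RNase P subunits RPP25 (0.33, adjusted p = 0.271) and POP4 (-0.26, adjusted p = 0.325) differed in direction from each other.

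NORAD was the most abundant of the 7 RNAs in every tumor. It was at 80.8, 102 and 84.7 TPM in irradiated tumors, against 109, 86.4 and 100.5 TPM in controls. The groups overlapped, with irradiated tumor 2 above control tumors 2 and 3. The means were 89.2 ± 11.3 TPM in irradiated tumors and 98.6 ± 11.4 TPM in controls (SD, n = 3 each), and the log2 fold change was -0.14 with a 95% interval of -0.49 to 0.20 (adjusted p = 0.626). The interval leaves out both a doubling and a halving, which lie at 1 and -1 on this scale. Its partners had fold changes on the same side: of 7 tested, limma called 0, 2 had an unadjusted p below 0.05 (both lower), and all 7 fold changes were negative, with a median of -0.33. KHDRBS1 (SAM68), which helps Pumilio proteins bind NORAD, was at 77.8, 81.3 and 92.6 TPM in irradiated tumors, against 124, 109.7 and 135 TPM in controls (-0.55, adjusted p = 0.0783). It was called lower without control tumor 2 (-0.63, adjusted p = 0.0487). RBMX, an RNA-binding protein of a nuclear complex that forms on NORAD, was at 80.7, 96.2 and 98.4 TPM in irradiated tumors, against 141, 104 and 141 TPM in controls (-0.47, adjusted p = 0.156), and CDC5L of a splicing complex had a log2 fold change of -0.40 (adjusted p = 0.271). PUM2, a Pumilio gene, overlapped and was at 23.9, 29.1 and 31.5 TPM in irradiated tumors, against 47.0, 30.8 and 31.0 TPM in controls (-0.33, adjusted p = 0.394).

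TUG1 was at 29.6, 35.8 and 27.4 TPM in irradiated tumors, against 38.3, 22.6 and 32.8 TPM in controls. The irradiated values lay inside the range of the controls. The means were 30.9 ± 4.38 TPM in irradiated tumors and 31.3 ± 7.98 TPM in controls (SD, n = 3 each), and the log2 fold change was 0.0091 with a 95% interval of -0.48 to 0.50 (adjusted p = 0.988). Its sign changed without irradiated tumor 2, without control tumor 2 and with tumor weights, so no direction can be given. TUG1 has been reported to bind the Polycomb repressive complex PRC2, and KCNQ1OT1 to recruit it. Of 10 PRC2 subunits and cofactors tested, limma called 0, 1 had an unadjusted p below 0.05 and 9 fold changes were negative, with a median of -0.18. EZH2, the catalytic subunit, was at 17.8, 22.1 and 19.1 TPM in irradiated tumors, against 33.1, 16.6 and 30.5 TPM in controls (-0.37, adjusted p = 0.456). RBBP7 (-0.43, adjusted p = 0.164) and SUZ12 (-0.50, adjusted p = 0.247), both subunits, and EZH1, the other catalytic subunit (-0.25, adjusted p = 0.478), were below all controls in every irradiated tumor. PHF1, a cofactor, was above all controls in every irradiated tumor (0.25, adjusted p = 0.359).

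Short annotated fragments of TUG1 on its own strand are 4 separate rows of the table, of which 2 had a value above 0 in any tumor, and reads there may be taken from TUG1. The one of 145 bases (ENSG00000276664) was listed at 0, 12.1 and 23.9 TPM in irradiated tumors, against 0, 0 and 39.9 TPM in controls. Adding the TPM of these rows to TUG1 gave a log2 fold change of 0.10 (adjusted p = 0.913), and adding them weighted by length, an alternative chosen after seeing the data, gave 0.011.

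PVT1 was the least variable of the tested RNAs. It was at 32.8, 33.9 and 34.4 TPM in irradiated tumors, against 27.8, 31.9 and 32.4 TPM in controls. The groups did not overlap, with every irradiated tumor above every control, as for MALAT1, so 2 of the 6 tested RNAs were of this kind, beside 11.6% of all genes. The gap was small. The means were 33.7 ± 0.832 TPM in irradiated tumors and 30.7 ± 2.54 TPM in controls (SD, n = 3 each), and the log2 fold change was 0.13 with a 95% interval of -0.18 to 0.45 (adjusted p = 0.622). PVT1 was also the only 1 of the 7 that did not have its lowest control value in control tumor 2. MYC, the neighboring oncogene whose transcription factor drives growth, was at 114, 126 and 143 TPM in irradiated tumors, against 199.9, 115 and 140.1 TPM in controls, and overlapped (-0.22, adjusted p = 0.589).

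MIR22HG was at 13.0, 18.6 and 12.4 TPM in irradiated tumors, against 13.2, 6.83 and 22.8 TPM in controls. The controls spanned more than the irradiated tumors and contained all their values. The means were 14.7 ± 3.43 TPM in irradiated tumors and 14.3 ± 8.03 TPM in controls (SD, n = 3 each), and the log2 fold change was 0.16 with a 95% interval of -0.70 to 1.02 (adjusted p = 0.849). A doubling is just inside that interval. Its sign changed without irradiated tumor 2, without control tumor 2 and with tumor weights. The miR-22 precursor, as a row of its own, was at 0 in all 6 tumors, so neither printed mature strand was measured. Of 10 tested genes reported as miR-22 targets, limma called 0, 1 had an unadjusted p below 0.05 and 8 fold changes were negative, with a median of -0.15. CDK6, a cell cycle kinase (-0.44, adjusted p = 0.275), was below all controls in every irradiated tumor, while TIAM1, an activator of the small GTPase RAC1 (0.37, adjusted p = 0.349), and MYCBP, a MYC-binding protein (-0.23, adjusted p = 0.503), overlapped. PRPF8, a spliceosome protein whose gene lies near MIR22HG, was at 119.8, 125 and 148 TPM in irradiated tumors, against 187, 167 and 198 TPM in controls (-0.49, adjusted p = 0.0965).

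KCNQ1OT1 was listed at 0.07, 0.07 and 0.08 TPM in irradiated tumors, against 0.17, 0.05 and 0.13 TPM in controls. The irradiated values lay inside the range of the controls. KCNQ1OT1 was tested when limma was run with no filter on low values, where its log2 fold change was -0.056 (adjusted p = 0.656). So far below 1 TPM, the 1 TPM added before the log2 shrinks any fold change, so this value does not measure a lack of change. The ratio of the mean TPM, irradiated over control, was 0.629. With an annotated length of 91667 bases, a given TPM stands for more reads than in a short gene, but the read number is not known. KCNQ1, the potassium channel gene that contains it on the other strand, was also below the filter, at 0.17, 0.09 and 0.26 TPM in irradiated tumors, against 0, 0.12 and 0 TPM in controls. Reads of both cannot be told apart unless strand was used, which is not given in the sources used here. Of 11 genes of the imprinted domain 7 were tested, limma called 0, 3 had an unadjusted p below 0.05 (2 higher and 1 lower), and the median was 0.16. CDKN1C, the cell cycle inhibitor p57 that KCNQ1OT1 silences on the paternal copy, was at 9.05, 5.66 and 7.35 TPM in irradiated tumors, against 8.28, 10.9 and 9.08 TPM in controls (-0.33, adjusted p = 0.418). OSBPL5, a lipid transfer protein (0.52, adjusted p = 0.168), and CD81, a tetraspanin (0.32, adjusted p = 0.190), were above all controls in every irradiated tumor, and NAP1L4, a histone chaperone (-0.33, adjusted p = 0.237), was below all of them.

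**Figure D4:**
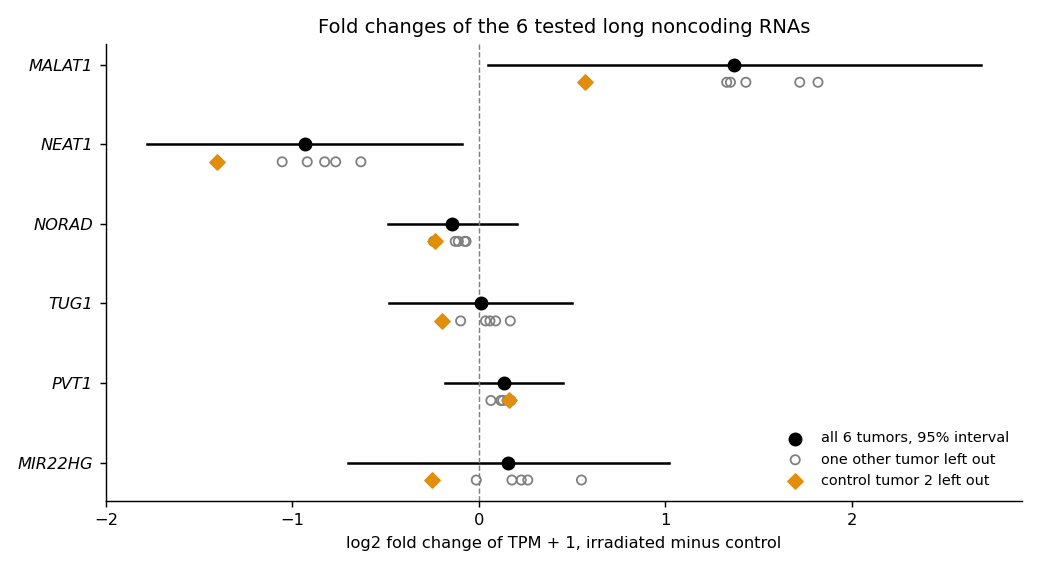
Log2 fold change of TPM + 1, irradiated minus control, of the 6 tested RNAs (black points, 95% intervals from limma), with the fold changes after leaving out control tumor 2 (orange diamonds) or 1 of the other tumors (open circles). Without control tumor 2, MALAT1 moves to 0.57 and NEAT1 to -1.40, while TUG1 and MIR22HG pass to the other side of 0.

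The order of the levels differed between the groups. In irradiated tumors NORAD was highest by its mean, followed by MALAT1, PVT1, TUG1, NEAT1, MIR22HG and KCNQ1OT1. The ranges of MALAT1 and PVT1 were adjacent without overlap, those of PVT1 and TUG1 overlapped, those of TUG1 and NEAT1 did not, and those of NEAT1 and MIR22HG did. In controls the order was NORAD, NEAT1, TUG1, PVT1, MALAT1, MIR22HG and KCNQ1OT1, and neighbors in that order overlapped from NEAT1 to MIR22HG, except that every control value of PVT1 (lowest 27.8 TPM) was just above those of MALAT1 (highest 27.4 TPM). NORAD and KCNQ1OT1 stood apart at the ends in both groups. The 7 RNAs together summed to 219, 249 and 210.2 TPM in irradiated tumors, against 259, 171 and 273 TPM in controls. NORAD alone made up 36.8% to 41.1% of that sum in irradiated tumors and 36.8% to 50.6% in controls.

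Control tumor 2 bears on most of these values. It held the lowest control value of 6 of the 7 RNAs, and 13392 genes at 1 TPM or more, the fewest of the 6 tumors. Ribosomal protein genes took 21.4%, 22.2% and 22.3% of all TPM in irradiated tumors, against 20.5%, 27.0% and 19.8% in controls, so that control tumor 2 was the highest. Genes of the mitochondrial genome took 10.6% to 11.7% in irradiated tumors and 7.58% to 10.5% in controls, with control tumor 2 the lowest. All 15 marker genes of MDA-MB-231 cells were above the filter and 0 were called, with 3 at an unadjusted p below 0.05, all lower, AXL (log2 fold change -0.53, adjusted p = 0.104), CD44 (-0.44, adjusted p = 0.129) and VIM (-0.46, adjusted p = 0.141). Of the 15 fold changes 10 were negative and 5 positive, beside 44.3% positive over all genes. In 4 of the 15 every irradiated tumor was below all controls, and in 0 above. Groups did not overlap, in either direction, for 26.6% of all genes. The markers summed to 6653 to 8179 TPM in irradiated tumors and 8136 to 9592 TPM in controls. The receptor and adhesion genes ESR1, PGR and CDH1, which the line lacks or holds low, were at most 0.32 TPM. Marker sums of tissue other than the tumor cells also differed, in some lists through few genes. Skeletal muscle markers summed to 2.43, 143 and 2.83 TPM in irradiated tumors, against 202, 270.5 and 549 TPM in controls, and 3 of 12 were called lower. Fibroblast markers summed to 134, 217 and 154 TPM in irradiated tumors, against 479, 533 and 1008 TPM in controls. Of 7 tested, 3 were called lower, the collagen genes COL1A1, COL1A2 and COL3A1. COL1A1 alone was at 87.2, 153 and 102 TPM in irradiated tumors, against 335, 347 and 698 TPM in controls. FAP (-0.995, adjusted p = 0.133) and POSTN (-0.73, adjusted p = 0.198) were not called. PDGFRB had a positive fold change (0.95, adjusted p = 0.211), and DCN was at -0.084 (adjusted p = 0.957). LUM, THY1, PDGFRA and DPT were below the filter. Endothelial markers summed to 78.0 to 111 TPM in irradiated tumors and 53.7 to 68.1 TPM in controls, and 0 of 4 tested were called. ENG and ESAM made up most of these sums, while PECAM1, VWF, KDR, TEK and CLDN5 were below the filter. Leukocyte markers summed to 109 to 208 TPM in irradiated tumors and 90.6 to 109 TPM in controls, with PTPRC at most 0.30 TPM and S100A8 at 0 in all 6. Adipocyte markers summed to 1.48 to 3.74 TPM in irradiated tumors and 0.35 to 0.99 TPM in controls. Whether any read of the mouse host was removed is not given in the sources used here. The part of these cell types, of ribosomal protein genes and of control tumor 2 in the values of the long noncoding RNAs was not tested beyond the fits without that tumor.

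Other named long noncoding RNAs were read for comparison. Of 36 tested, limma called 0, 5 had an unadjusted p below 0.05 (1 higher and 4 lower), and the median log2 fold change was -0.14. CRNDE, which is raised in many cancers, was at 5.51, 5.67 and 5.85 TPM in irradiated tumors, against 8.56, 10.8 and 9.56 TPM in controls (log2 fold change -0.67, adjusted p = 0.0843). MIR210HG, the host of the hypoxia-induced miR-210, was at 8.46, 6.47 and 4.95 TPM in irradiated tumors, against 9.79, 13.3 and 13.7 TPM in controls (-0.81, adjusted p = 0.0996). PSMB8-AS1, antisense to an immunoproteasome gene (0.78, adjusted p = 0.110), was above all controls in every irradiated tumor, and OIP5-AS1 (-0.70, adjusted p = 0.159) was below all of them. PSMA3-AS1 was the 1 of the 36 called without control tumor 2, as lower in irradiated tumors (-1.15, adjusted p = 0.0464), in a fit that called 4.73% of all genes. The class as a whole, 1169 long noncoding RNA genes tested, had 24 called higher (2.05%) and 22 called lower (1.88%), with a median of 0.022.

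Of 18 tested genes that neighbor the 7 RNAs, limma called 0, 6 had an unadjusted p below 0.05 (4 higher and 2 lower), and the median log2 fold change was 0.19. The smallest p belonged to SELENOM, a selenoprotein of the endoplasmic reticulum whose gene lies near TUG1, at 172, 178 and 162 TPM in irradiated tumors, against 63.6, 126 and 102 TPM in controls (0.86, adjusted p = 0.0897). It was called higher without control tumor 2 (1.07, adjusted p = 0.0451). CNBD2, whose gene lies near NORAD, was at 2.07, 2.37 and 1.01 TPM in irradiated tumors, against 3.91, 3.91 and 4.44 TPM in controls (-0.89, adjusted p = 0.109).

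**Figure D5:**
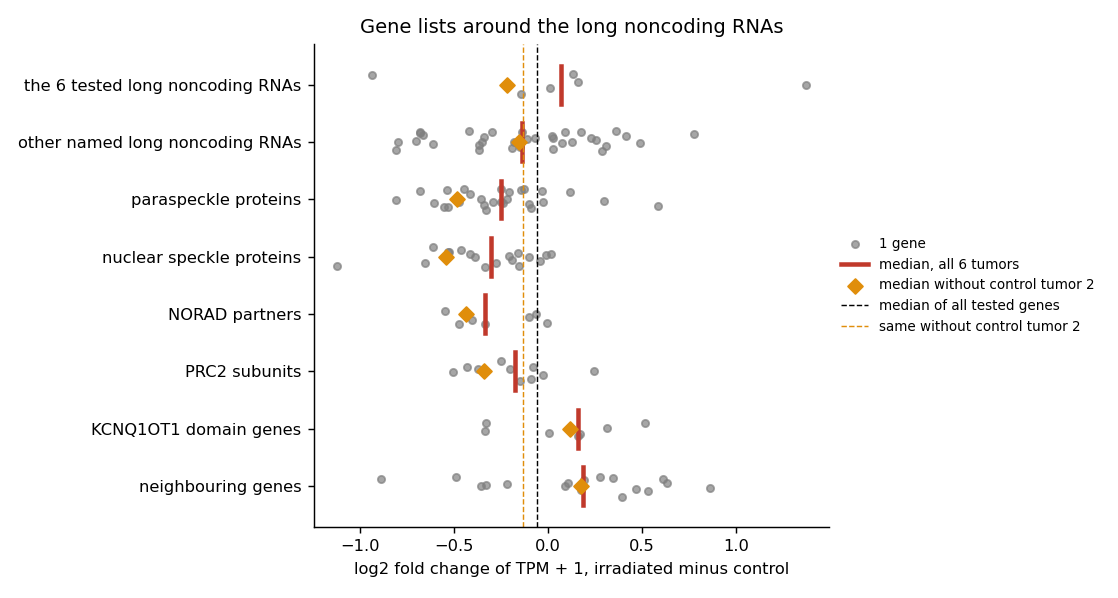
Log2 fold changes of TPM + 1, irradiated minus control, of the tested genes of 8 lists (grey points, 1 per gene), with each list's median over all 6 tumors (red bars) and without control tumor 2 (orange diamonds). Dashed lines mark the median of all tested genes, -0.056 with all tumors (black) and -0.13 without control tumor 2 (orange); the medians of paraspeckle and nuclear speckle proteins lie at -0.25 and -0.30.

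For each tested RNA the genes with the most similar pattern were found by Pearson's r of log2(TPM + 1) over the 6 tumors, among 9371 genes that averaged 5 TPM or more, leaving out the 7 RNAs themselves, pseudogenes, mitochondrially encoded genes, genes with a clone, LOC or LINC name, no symbol or no entry in GENCODE release 29, and XIST. These tumors share the group difference and control tumor 2, so the values only describe. The gene most like MALAT1 was MPV17L2 (r = 0.993), at 27.7, 29.1 and 28.1 TPM in irradiated tumors, against 25.1, 17.4 and 26.9 TPM in controls, followed by DCAF5 (r = 0.986) and RPUSD2 (r = 0.986). The gene most like NEAT1 was IGFBP1 (r = 0.997), at 11.6, 9.67 and 9.63 TPM in irradiated tumors, against 19.7, 10.3 and 22.2 TPM in controls, followed by AURKB (r = 0.994) and IQGAP3 (r = 0.992). NORAD was most like CCSER2 (r = 0.997), SEL1L (r = 0.993) and NFXL1 (r = 0.990), and TUG1 most like ADCY7 (r = 0.992), CENPM (r = 0.990) and AP3D1 (r = 0.981). PVT1 was most like PIGH (r = 0.971), ATP6V0C (r = 0.967) and ATP6V0B (r = 0.961), and MIR22HG most like TRIM8 (r = 0.988), AKAP8 (r = 0.979) and SLC2A8 (r = 0.975). The genes like MALAT1, TUG1 and MIR22HG were lowest of all 6 tumors in control tumor 2. Those like NEAT1 and NORAD had their lowest control value there, and those like PVT1 in control tumor 1.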

How the data were processed

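The authors deposited TPM in 1 table of 60606 genes and 6 tumors. Per the submitters' processing notes, hg38 was the genome, and HISAT2, StringTie and RSEM were used; their versions, the annotation release, the strand setting and the handling of host reads were not stated. Per the labels' protocols, libraries came from total RNA with an Illumina TruSeq kit. TPM keeps no depth, so read numbers are unknown and no counting interval or count test is given.

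The members, lists and tests were chosen with earlier results of these data known. The 14140 genes averaging 1 TPM or more were fitted with limma 3.58.1 in R 4.3.3 (lmFit, eBayes with trend, two-sided) on log2(TPM + 1), with group as the only term and Benjamini-Hochberg adjustment at 0.05. On simulated data for this comparison (14140 genes, 200 changed, 5 draws) it called 31.6% of 2-fold and 79.8% of 4-fold changes, and 5.43% of its calls were false. The simulated noise was independent between genes, with no tumor that departed in many genes together. These shares may therefore not hold for the real tumors. The MALAT1 to NEAT1 ratio was tested by exact permutation. Tumors with the same number are not tied together by the labels, so no pairing term was used. Gene types and coordinates (GRCh38, the assembly of hg38) and transcript sequences were read from GENCODE release 29, which holds 58396 of the table's identifiers, and miR-22 from RefSeq.

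Named were all members and, by rule, every called gene and up to 4 others with the smallest p of each list, 13 genes fixed by name (such as NONO, PUM2 and MYC) and the 3 most similar genes of each member. RN7SK, RN7SL1, RN7SL2, RMRP, H2AC6, H3C2, H4C3, SNORD3A, RPPH1, TERC, RNU4-2, AXL, CD44, VIM, HNRNPR, SRSF10, NKTR, EZH1, PSMA3-AS1 and ENSG00000173727 were named after their values were seen. The named luminal, fibroblast and endothelial marker genes were also chosen after their values were seen. Alternatives were other pseudocounts, filters, scalings and limma settings, sums with overlapping rows (the length-weighted sum was added after seeing the data), a replicate block, and each tumor left out. All 6 tumors entered the comparison. Some genes covered by this rule are not reported here.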

Additional observations from a re-analysis of the deposited data

How the results depend on the processing

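Over all genes 421 were called, against 133 with no filter, 279 without trend, 1064 with tumor weights, 185 with a replicate block, and 107 to 669 when each tumor was left out in turn; the cause was not tested, except that fewer tumors or more genes enter some fits. No fit called a member higher. Members called lower numbered 0, against 1 with tumor weights and 0 to 1 with a tumor left out, and that member was NEAT1, with a log2 fold change of -1.21 with tumor weights (adjusted p = 0.0406) and -1.40 to -0.63 with a tumor left out (adjusted p over all 20 alternatives 0.0222 to 0.460). MALAT1 kept its direction in 20 of 20 alternatives, with log2 fold changes of 0.57 to 1.82 and adjusted p-values of 0.0712 to 0.449. NORAD (-0.24 to -0.069, 17 alternatives) and PVT1 (0.064 to 0.19, 20 alternatives) also kept theirs. TUG1 changed sign with tumor weights (-0.0094) and ranged from -0.20 to 0.17 with a tumor left out, and MIR22HG changed sign with tumor weights (-0.076) and ranged from -0.25 to 0.55. The log2 MALAT1 to NEAT1 difference was 2.04 to 2.66 with a tumor left out and 2.30 on TPM + 1. Whether equal tumor numbers mark pairs or a shared batch is not known. Correlations of same-numbered deviations were -0.043, -0.046 and -0.059, and with 3 tumors a group these values cannot exclude a pairing. With a replicate block MALAT1 had an adjusted p of 0.2003 and NEAT1 of 0.196, with no member called. With 3 tumors a group and no read numbers, the 95% intervals of NORAD, TUG1, PVT1 and MIR22HG include 0.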
